A study of Mus musculus with 4 samples.

Results

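The 10 genes described here are CC chemokines and 1 receptor tied to monocyte traffic and inflammation: the monocyte chemoattractant ligands Ccl2, Ccl7, Ccl8 and Ccl12, the macrophage inflammatory ligands Ccl3 and Ccl4, the myeloid ligands Ccl6 and Ccl9, the eotaxin-type ligand Ccl24, and Ccr2, the main receptor for monocyte chemoattractant proteins. They were taken by name, 10 of the 32285 genes in the deposited count matrix, and all 10 were detected. They were followed across 4 tumour samples and the 17 cell types that the authors assigned to 33368 single cells.

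CC chemokines are small secreted proteins that draw leukocytes along a gradient through G-protein-coupled receptors. Monocytes leave the bone marrow and enter inflamed or tumour tissue through CCR2, and most of its ligands are made by monocytes, macrophages and stromal cells at the site. CCL6 and CCL9 act on CCR1, and CCL24 acts on CCR3, a receptor of eosinophils.

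Cells came from melanomas grown from YUMM1.7OVA, a mouse melanoma line that carries a Braf mutation and ovalbumin, in Rag2-/- mice, which lack their own T and B cells. The mice, 6 to 12 weeks old, received ovalbumin-specific OT-1 T cells on day 7, tumours were taken on day 10, 72 h later, and live CD45+ cells were profiled by 10x Genomics 3' single-cell RNA sequencing. All 4 groups therefore share the Rag2-/- host and the transferred T cells. The NTT tumour was grown from treatment-naive cancer cells (line Y1.7_NTT_3A6), and the RTT tumour from cancer cells made resistant to a BRAF inhibitor (line Y1.7_RTT_2B12), so each stands for 1 line. The other 2 groups are RTT cells with a ROSA26 control guide (RTT_ROSA26) and RTT cells with Ptgs1 and Ptgs2, the cyclooxygenase genes needed for prostaglandin E2 synthesis, knocked out (RTT_PTGS12KO). The knockout is in the cancer cells, against which the CD45 sort selects, and it was not checked in these cells. The sort was not complete for other cells, since 351 cells carry the authors' name Myofibrobl. Each group is 1 sample, which the labels describe as 1 tumour and the study's figure legends as several tumours pooled, so no difference between groups was tested and no p-value is given. The 3 comparisons addressed how the resistant tumour differs from the naive 1 (NTT against RTT), what loss of the cyclooxygenases changes (RTT_PTGS12KO against RTT_ROSA26), and how far apart the RTT tumours without the knockout lie (RTT_ROSA26 against RTT).

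The samples held 6836 to 10296 cells and 69332486 to 146829369 UMIs (unique molecular identifiers, each counting 1 captured RNA molecule), with a median of 7292.5 UMIs per cell in NTT and 12219 to 13280 in the other 3. Cell types differed in number: monocytes (Monocyte_1, Monocyte_3 and Infl_Mono in the authors' names) numbered 6619 for NTT, 522 for RTT, 144 for RTT_ROSA26 and 4015 for RTT_PTGS12KO, and macrophages (TAM_C1q, TAM_Spp1, TAM_H2Ab1, TAM_cycling and Ctsk_Macro) 308, 6734, 5993 and 5207. Only 98 barcodes occurred in more than 1 chip load, and none occurred 2 times within a load. In a check against known markers, the leading genes of TAM_cycling were cell cycle genes and those of Ctsk_Macro osteoclast genes, Infl_Mono led with interferon-response genes, and TAM_H2Ab1 led with no gene of the lists checked; the authors' names are kept here as names.

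Levels are given as CPM, the UMIs of a gene per 1000000 UMIs of the same cells, and values that are not named one by one follow the order NTT, RTT, RTT_ROSA26 and RTT_PTGS12KO, or this order from RTT on where 3 are given. Every interval is a 95% interval (exact Poisson for CPM, exact conditional binomial for a ratio, Clopper-Pearson for a share) and covers counting error only, not the spread between animals. The pooled samples were loaded on 3 channels of a chip, and the range over these loads is given as a technical spread.

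Of the 10 genes, 8 lie in 2 runs on chromosome 11. In GRCm38, Ccl2 (chr11:82035571-82037453), Ccl7 (chr11:82045712-82047525), Ccl12 (chr11:82101845-82103400) and Ccl8 (chr11:82115185-82116799) follow each other on the plus strand. Ccl9 (chr11:83572919-83578636, minus strand), Ccl6 (chr11:83587882-83593087, minus strand), Ccl3 (chr11:83647844-83649355, minus strand) and Ccl4 (chr11:83662584-83664683, plus strand) form the second run. Ccl24 lies at chr5:135569937-135573049 on the minus strand and Ccr2 at chr9:124101950-124113557 on the plus strand. No member shared a stretch of 31 transcript bases with another member, so reads of that length separate them from each other. Ccl2 overlaps the gene model Gm17268, and Ccl6 the model E230016K23Rik, each on the opposite strand.

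The RefSeq promoter windows (GRCm38.p6, 250 bases before to 50 bases after the annotated start) were matched for 6 of the 10 members: Ccl3, Ccl6, Ccl8, Ccl9, Ccl12 and Ccr2. Ccl12 and Ccl8 are shown because they are neighbours in the genome but reached their highest levels in different cell types, Ccl12 in TAM_H2Ab1 of the knockout and Ccl8 in Macro of RTT. Capitals mark the TATA box letters TATAAAA, which start 31 bases before the annotated start of Ccl12 and 32 bases before that of Ccl8.
Ccl12, chr11:82101595-82101894, plus strand: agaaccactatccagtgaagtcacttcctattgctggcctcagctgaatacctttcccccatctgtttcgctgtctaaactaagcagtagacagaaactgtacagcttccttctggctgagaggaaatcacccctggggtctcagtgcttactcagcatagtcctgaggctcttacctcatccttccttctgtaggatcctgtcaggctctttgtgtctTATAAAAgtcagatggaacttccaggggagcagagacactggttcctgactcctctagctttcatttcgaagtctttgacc
Ccl8, chr11:82114935-82115234, plus strand: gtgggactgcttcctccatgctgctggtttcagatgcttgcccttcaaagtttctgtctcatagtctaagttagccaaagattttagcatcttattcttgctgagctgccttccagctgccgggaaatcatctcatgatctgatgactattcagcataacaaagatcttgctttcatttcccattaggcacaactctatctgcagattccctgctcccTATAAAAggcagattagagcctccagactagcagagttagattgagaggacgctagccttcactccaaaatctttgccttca
Ccl6 and Ccl9 are shown because their levels followed each other across cell types. Capitals mark the stretches of at least 10 bases found in both windows.
Ccl6, chr11:83593038-83593337, minus strand: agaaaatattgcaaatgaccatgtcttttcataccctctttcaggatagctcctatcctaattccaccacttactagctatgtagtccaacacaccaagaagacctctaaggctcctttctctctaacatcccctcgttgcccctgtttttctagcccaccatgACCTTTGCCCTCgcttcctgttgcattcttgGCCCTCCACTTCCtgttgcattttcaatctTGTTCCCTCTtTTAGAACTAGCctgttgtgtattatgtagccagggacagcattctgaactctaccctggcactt
Ccl9, chr11:83578587-83578886, minus strand: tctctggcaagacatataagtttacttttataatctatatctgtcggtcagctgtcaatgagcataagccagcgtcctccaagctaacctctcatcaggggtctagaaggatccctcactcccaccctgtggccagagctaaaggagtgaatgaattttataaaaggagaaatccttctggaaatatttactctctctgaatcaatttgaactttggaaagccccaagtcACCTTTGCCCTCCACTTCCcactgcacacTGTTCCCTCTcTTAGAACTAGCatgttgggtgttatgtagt
The longest shared stretch, GCCCTCCACTTCC, has 13 bases and starts 55 bases before the start of Ccl6 and 14 bases before that of Ccl9; 0.0183% of the 32851 promoter windows hold it on either strand. TATAAAA, searched on both strands, was in 3 of the 6 windows (Ccl12, Ccl8 and Ccl9), against 5.48% of all windows. The AP-1 letters TGANTCA were in 1 window (Ccl9) against 7.81% of all, a kappaB motif in 1 (Ccl9) against 8.46%, GAGGAA, the core of the PU.1 motif, in 3 (Ccl12, Ccl8 and Ccl3) against 28.3%, and the interferon motifs ISRE and GAS in none, against 3.44% and 8.30%. The CRE half-site TGACG was also in none, against 20.8%. Each motif was searched on both strands, and these matches describe letters only.

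Over all cells of a sample, the members did not share 1 order of the samples. Ccl2, Ccl7 and Ccl12 were higher in both tumours with guide RNAs than in RTT or NTT, Ccl9 and Ccl8 were lowest in NTT, and Ccr2 was highest in NTT and the knockout, while Ccl3, Ccl4, Ccl6 and Ccl24 followed none of these orders. In a sum over all cells, fewer cells of a type and less RNA per cell cannot be told apart, and the numbers of monocytes and macrophages above differed widely between samples.

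**Figure D1:**
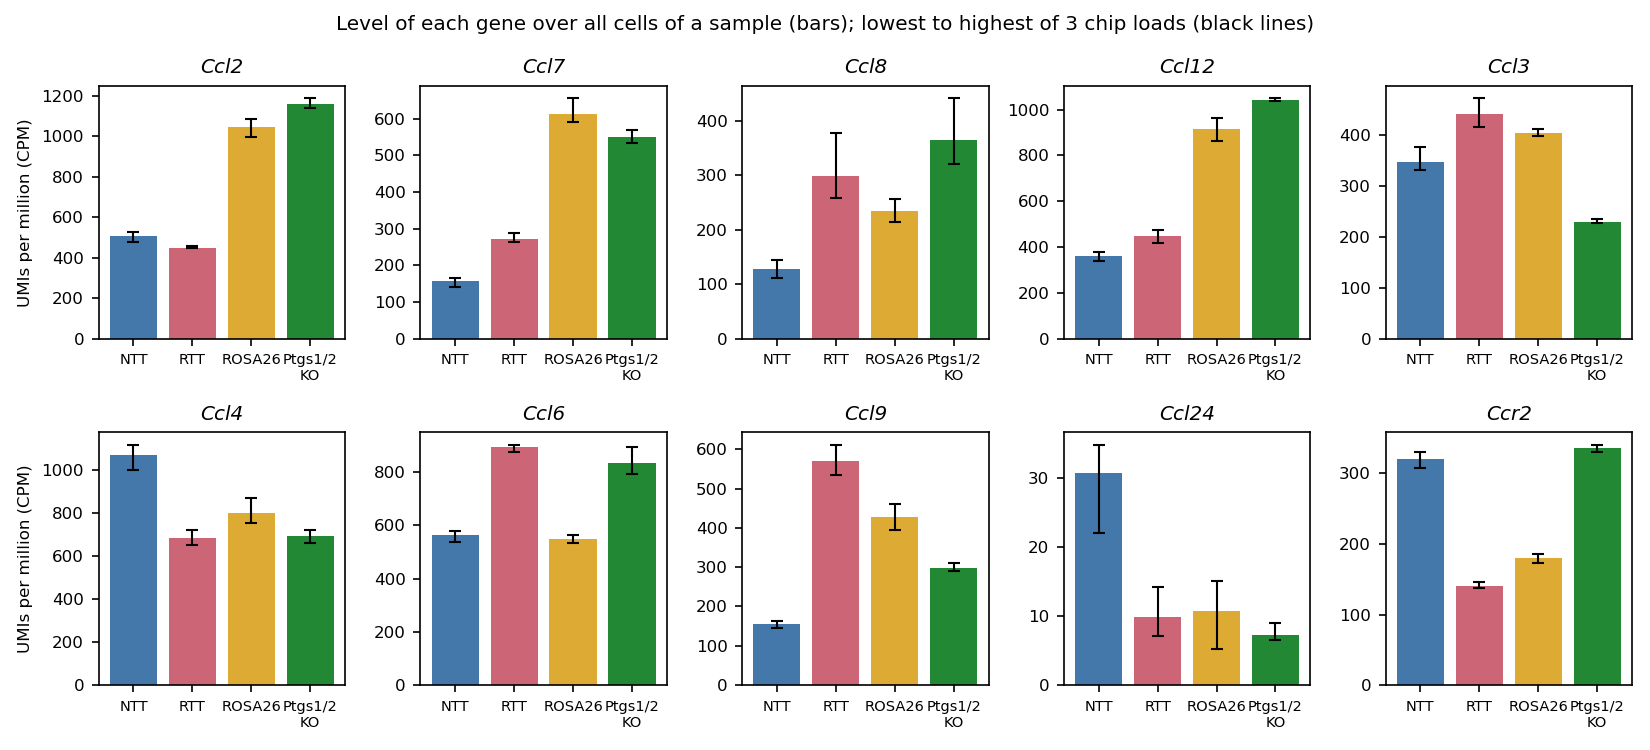
Level of each member over all cells of a sample, in CPM on axes that start at 0; bars are the 4 samples and black lines span the lowest and highest of 3 chip loads. Ccl2, Ccl7 and Ccl12 stand higher in RTT_ROSA26 and RTT_PTGS12KO than in RTT, and Ccr2 is highest in NTT and RTT_PTGS12KO.

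Ccl2, the main ligand of CCR2, was at 507 CPM for NTT, 449 for RTT, 1047 for RTT_ROSA26 and 1159 for RTT_PTGS12KO. The 2 tumours with guide RNAs were therefore apart from the other 2 (loads 995 to 1188 CPM against 445 to 524). Ccl7, a second CCR2 ligand, was at 156, 272, 613 and 549.6 CPM in the same order. Ccl12, a CCR2 ligand described in mice, was at 361, 449, 917 and 1044 CPM. These ligands thus shared an order in which RTT_ROSA26 and RTT_PTGS12KO were the highest samples.

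Ccl8, the last of the monocyte chemoattractant genes here, did not share it, with 128 CPM for NTT, 299 for RTT, 234 for RTT_ROSA26 and 364 for RTT_PTGS12KO. Ccl3 was at 348, 443, 405 and 231 CPM, lowest in the knockout, and Ccl4 at 1070, 687, 801 and 693 CPM, highest in NTT. Ccl6 was at 564, 894, 548 and 837 CPM. Ccl9 was at 155, 570.3, 428 and 297 CPM, so that NTT was below every other sample. Ccl24 was low throughout, at 30.8, 9.87, 10.8 and 7.25 CPM. Ccr2 was at 320.2, 141, 181 and 336 CPM, with both monocyte-rich tumours above the others.

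Between NTT and RTT, 4 of the 10 members differed at least 2-fold, against 13.8% of the 7054 genes at 10 CPM or more. The members' median log2 ratio was -0.33, beside -0.11 over all those genes. Ccl24 (log2 ratio 1.64, interval 1.54 to 1.74) and Ccr2 (1.18, 1.16 to 1.21) were higher in NTT, and Ccl9 (-1.88, -1.91 to -1.85) and Ccl8 (-1.22, -1.25 to -1.19) were lower. With the 6 cell types present in both samples weighted equally, Ccr2 was at 0.29 and Ccl24 at 0.49, while Ccl9 (-1.38) and Ccl8 (-2.21) stayed past 2-fold and were lower in NTT in 6 of 6 types. In cDC2, however, the Ccl8 interval spanned 0 (-0.17, -0.80 to 0.45). Ccl8 fell under 2-fold in chip load 3 alone (-0.84), Ccl24 in chip load 1 alone (0.64) and Ccr2 with the mean of per-cell CPM (0.91).

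Between RTT_PTGS12KO and RTT_ROSA26, 0 of 10 members differed 2-fold, where 6.22% of the genes did. The members' median was -0.0057, beside -0.12 over all genes. The ratios closest to the limit were Ccr2 (0.89, 0.87 to 0.92) and Ccl3 (-0.81, -0.83 to -0.79). Equal weighting of 9 cell types moved Ccl8 from 0.64 to -1.12 and Ccl24 from -0.57 to -2.62, both genes being highest in the Macro type of RTT_ROSA26, and moved Ccr2 to 0.02.

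Between RTT_ROSA26 and RTT, 3 of 10 members were 2-fold higher and none lower, where 1.79% of the genes differed 2-fold in either direction. The members' median was 0.17, beside 0.05 over all genes. These 3 were Ccl2 (1.22, 1.21 to 1.24), Ccl7 (1.17, 1.15 to 1.19) and Ccl12 (1.03, 1.02 to 1.05). The samples share the RTT cancer cells and differ by the guide. By the study's methods, lines with guides were made from clones with inducible Cas9, the enzyme that guides direct, and passed puromycin selection. The samples also come from separate tumours, so guide, clone, selection and tumour cannot be told apart. Ccl12 was close to the limit and fell just under it with TMM factors, and also with the mean of per-cell CPM (0.94) and in chip load 3 alone (0.92). With 10 types weighted equally the ratios were 0.73, 0.39 and 0.38. NTT and RTT_ROSA26 were both set against RTT, and RTT_ROSA26 stands in 2 comparisons, so the 3 sets of ratios are not independent.

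**Figure D2:**
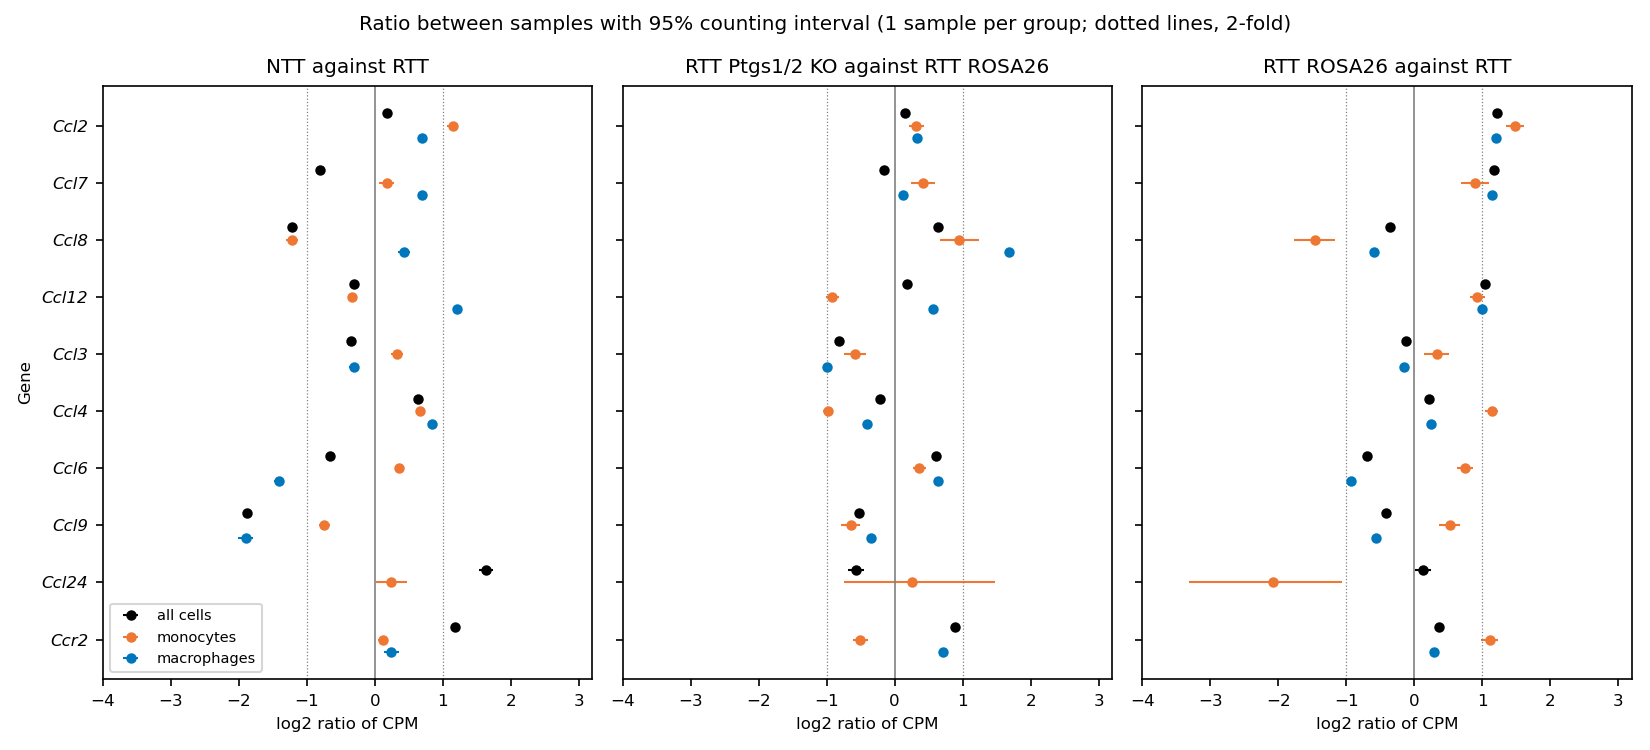
Log2 ratio of CPM for each member in the 3 comparisons, over all cells (black), monocytes (orange) and macrophages (blue), with 95% counting intervals; dotted lines mark 2-fold, and Ccl24 in macrophages is left out for being under 10 CPM. Ccl8, Ccl12 and Ccl6 lie on opposite sides of 0 in monocytes and macrophages for NTT against RTT.

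The cells behind these sums changed with the sample. In NTT, monocytes held 85.5% of the Ccl2 UMIs, and Monocyte_1 alone 52.9%. In RTT and RTT_ROSA26, macrophages held 90.8% and 96.6% of them. In RTT_PTGS12KO macrophages held 74.6% and monocytes 22.4%. Ccr2 moved in the same way: monocytes held 79.3% of its UMIs in NTT and NK cells 13.2%, whereas TAM_Spp1 held 54.6% in RTT and 42.4% in RTT_ROSA26, and Monocyte_1 33.3% in RTT_PTGS12KO. Ccl8 was the member for which a small type weighed most, with the 99 Macro cells of RTT holding 34.9% of its UMIs and the 130 of RTT_ROSA26 holding 42.8%.

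**Figure D3:**
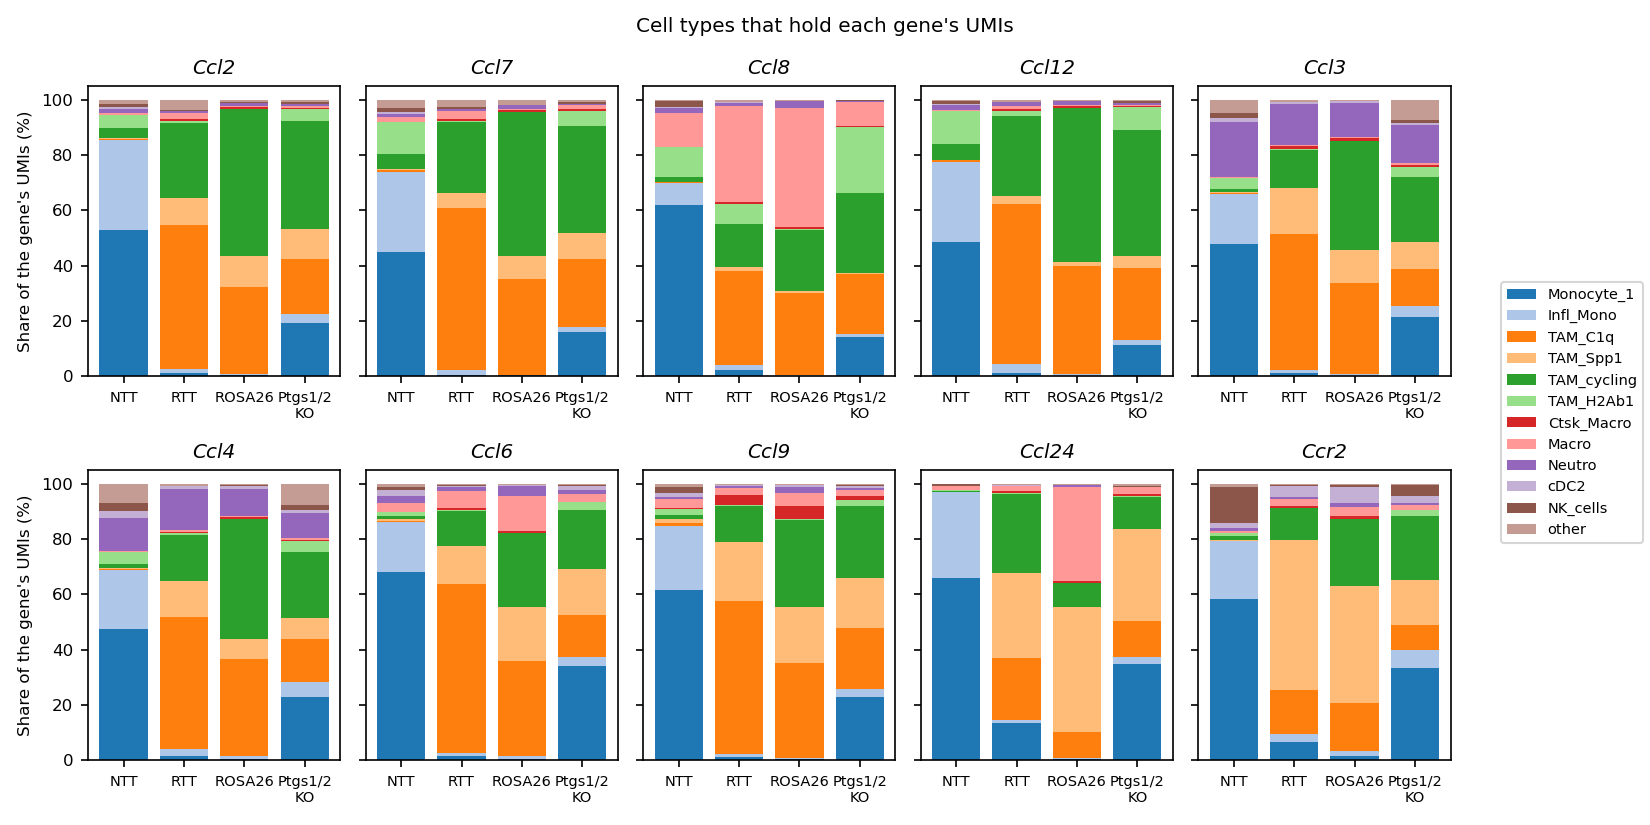
Share of each member's UMIs (%) held by each cell type, stacked to 100% in the 4 samples. Monocytes hold most of every member's UMIs in NTT, and macrophage types hold most of them in RTT and RTT_ROSA26.

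Levels within a cell type are given for the 42 combinations of type and sample with at least 50 cells. Across them Ccl8 ranged from 5.13 to 11845 CPM around a median of 124. Ccr2 had a narrower range, 7.87 to 711 CPM around 265. Ccl2 ranged from 22.1 to 1631 CPM, Ccl7 from 12.8 to 957, Ccl12 from 11.7 to 2193, Ccl3 from 36.5 to 5092, Ccl4 from 67.5 to 8009, Ccl6 from 22.8 to 6941, Ccl9 from 27.6 to 1933 and Ccl24 from 0 to 367.

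**Figure D4:**
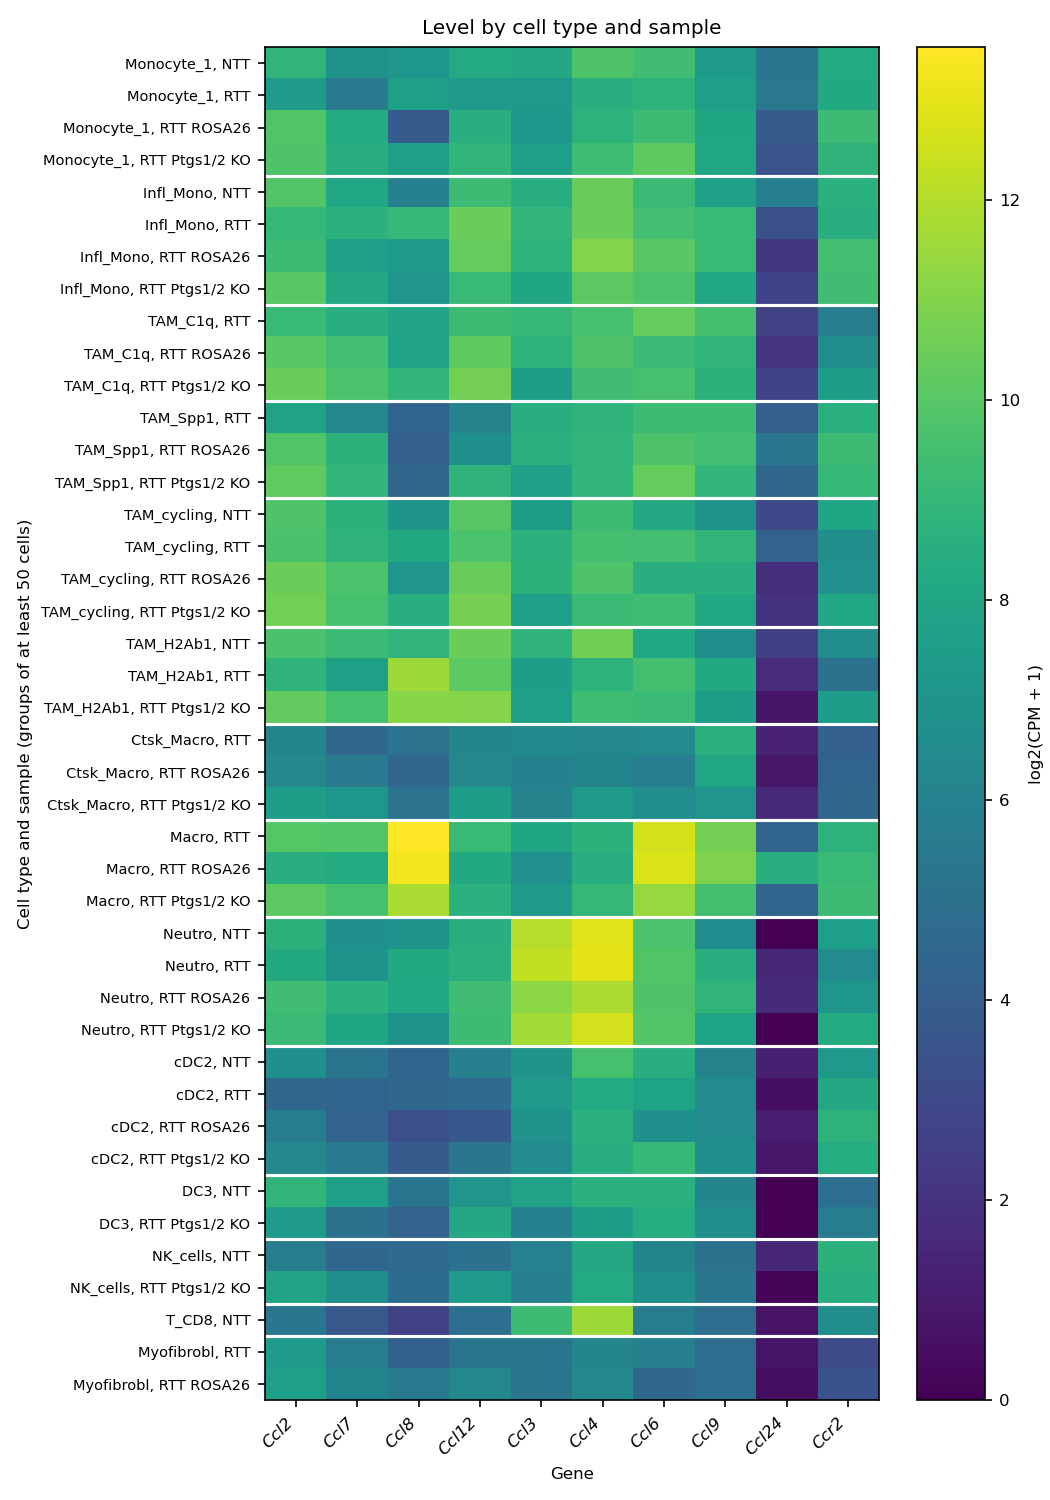
Level of each member (columns) in each cell type and sample with at least 50 cells (rows), as log2(CPM + 1) by colour. Ccl7, Ccl8, Ccl6, Ccl9 and Ccl24 reach their highest levels in Macro, Ccl3 and Ccl4 in Neutro, and Ccr2 varies less than Ccl8 across the rows.

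Ccl2 in the cycling macrophages was at 907 CPM for NTT, 788 for RTT, 1440 for RTT_ROSA26 and 1631 for RTT_PTGS12KO, the highest level of any type in the last 2 samples. Infl_Mono (965 CPM) stood above it in NTT and Macro (1003 CPM) in RTT. TAM_C1q, the complement-expressing macrophages, had 552, 1056 and 1430 CPM in RTT, RTT_ROSA26 and RTT_PTGS12KO. From RTT on, both types thus stepped up in the same order, and the loads of the 3 samples did not overlap in either type. Among the macrophage types, TAM_Spp1 had the widest step between RTT and RTT_ROSA26, with 221 CPM in RTT (loads 205 to 232), 934 in RTT_ROSA26 (846 to 1002) and 1179 in RTT_PTGS12KO (1121 to 1267). Macro went the other way between RTT and RTT_ROSA26, with 1003, 356 and 1101 CPM from RTT on. Ctsk_Macro and cDC2 were low, at 69.0 to 194 CPM and 22.1 to 110.0 CPM.

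In Monocyte_1, Ccl2 was at 469 CPM for NTT, 178 for RTT, 934 for RTT_ROSA26 and 900.0 for RTT_PTGS12KO. RTT was the low sample, and the loads of NTT (459 to 481) and RTT (126 to 211) did not overlap. In Infl_Mono it was at 965, 508, 609 and 1053 CPM, so NTT and the knockout were the high samples there. The share of Monocyte_1 cells with a Ccl2 UMI, after every cell was thinned to 3000 UMIs, was 41.6% for NTT, 22.6% for RTT, 33.3% for RTT_ROSA26 and 52.6% for RTT_PTGS12KO (56.3%, 37.8%, 48.1% and 70.1% unthinned). In NK cells, which are not known as a source of Ccl2 and whose median depth of 9423.5 UMIs is close to that of Monocyte_1 (8094.5), this share was 10.2% (23.5% unthinned), which is read as background. The NK cells, pooled here over samples, were mostly of NTT (709) and the knockout (306). RTT gave 13 and RTT_ROSA26 26, so the background of these samples is poorly covered. Free RNA in the droplets can add UMIs to any cell type, and its amount was not estimated. Thinning left out 208 cells in NTT and 46 to 91 in each of the others.

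Ccl7 followed Ccl2. It was at 413, 445, 825 and 763 CPM in TAM_cycling, and at 376, 682 and 843 in TAM_C1q of RTT, RTT_ROSA26 and RTT_PTGS12KO. In TAM_Spp1 it was at 76.0 CPM for RTT, 409 for RTT_ROSA26 and 497 for RTT_PTGS12KO, so RTT was again the low sample. Macro went the other way, with 957 CPM for RTT, 321 for RTT_ROSA26 and 770 for RTT_PTGS12KO. The value of RTT there was the highest Ccl7 level of all combinations of type and sample. In Monocyte_1 Ccl7 was at 123, 45.4, 325 and 349 CPM. Infl_Mono gave another order, with 265 CPM for NTT, 399.7 for RTT, 212 for RTT_ROSA26 and 289.5 for RTT_PTGS12KO, and the loads of RTT_ROSA26 (29.5 to 373) spanned the values of all but RTT.

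Ccl12 in TAM_H2Ab1 was at 1462 CPM in NTT, 1138 in RTT and 2193 in RTT_PTGS12KO, the highest level of any type in NTT and the knockout but below Infl_Mono in RTT, and 73.0% to 77.9% of these cells held a UMI after thinning (84.1% to 93.4% unthinned), against 7.51% of NK cells (17.2%). The median depth of TAM_H2Ab1 cells was 12990.5 UMIs. In TAM_C1q it was at 612, 1139 and 1689 CPM in RTT, RTT_ROSA26 and RTT_PTGS12KO. TAM_Spp1 was lower, at 65.7, 108 and 439.6 CPM, and here the knockout stood 2.03 log2 units above RTT_ROSA26 (1.95 to 2.11). Its loads (393 to 516 CPM) lay above those of RTT_ROSA26 (97.8 to 118), and the share of cells with a UMI was 14.5% in RTT_ROSA26 and 32.1% in the knockout (28.2% and 54.5% unthinned). Infl_Mono gave another order, RTT and RTT_ROSA26 being the high samples, with 614 CPM for NTT, 1376 for RTT, 1310 for RTT_ROSA26 and 545 for RTT_PTGS12KO. The 86 Infl_Mono cells of RTT_ROSA26 gave 177 to 1980 CPM over loads, so that value is loosely fixed. The 13 macrophage markers checked, all above 10 CPM, summed in Infl_Mono to 5986 CPM for NTT, 31317 for RTT, 14310 for RTT_ROSA26 and 5275 for RTT_PTGS12KO, so they were also highest in RTT and RTT_ROSA26. The 9 monocyte markers, all above 10 CPM, summed there to 14048, 7967, 12359 and 17530 CPM, highest in NTT and the knockout, as Ccl2 was. The part of these markers in the levels of Ccl2, Ccl12, Ccl7 and Ccl8 in these cells was not tested.

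Ccl8 was concentrated in Macro and TAM_H2Ab1, where it is among the 10 leading genes of the type itself, so its height there belongs to how the types are told apart. In Macro it was at 11845 CPM for RTT, 9965 for RTT_ROSA26 and 3572 for RTT_PTGS12KO, and the loads of the knockout (2127 to 6613) lay below those of the other 2 (8651 to 17823). The share of Macro cells with a UMI was 59.8%, 58.4% and 33.3% after thinning (64.6%, 63.8% and 41.7% unthinned, at a median of 9864.5 UMIs), against 4.05% of NK cells (12.2%). Over the same Macro cells the summed level of the 13 macrophage markers checked was 41271, 42425 and 10854 CPM, with all 13 above 10 CPM in each sample, so the Macro cells of the knockout also differed in these. Their part in the Ccl8 difference was not tested.

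In TAM_H2Ab1, Ccl8 was at 461 CPM in NTT, 2964 in RTT and 2228 in RTT_PTGS12KO. In the same cells and order the 13 macrophage markers, all above 10 CPM, summed to 22104, 36797 and 22589 CPM. The 6 tissue-resident macrophage markers, of which 1 to 3 were above 10 CPM, summed to 54.9, 160 and 136 CPM. Their part in the Ccl8 levels was not tested. In TAM_C1q Ccl8 was at 240.1, 221 and 488 CPM in RTT, RTT_ROSA26 and RTT_PTGS12KO, and in TAM_cycling at 126, 298, 133 and 375 CPM in the 4 samples. The knockout was the highest of the samples in both types, with log2 ratios to RTT_ROSA26 of 1.14 (1.10 to 1.18) and 1.50 (1.45 to 1.54), opposite to Macro (-1.48, -1.53 to -1.43). Infl_Mono held 60.4, 522, 167 and 132 CPM, and Monocyte_1 of RTT_ROSA26 only 6 UMIs (14.6 CPM).

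The UMIs of Ccl8 sat in few cells. In the 18 combinations of type and sample with at least 200 cells and 30 Ccl8 UMIs after thinning, the 10% of cells with most Ccl8 UMIs held a median of 99.5% of them (range 68.2% to 100%). By the same limits, for Ccl7 this median was 76.4%, for Ccl12 72.3%, for Ccl3 70.7%, for Ccl4 67.2% and for Ccl2 61.0%. Ccl6 (49.6%), Ccl9 (47.1%) and Ccr2 (42.0%) were spread over more cells. For Ccl24, the member with the fewest UMIs, the value was 100% in each of 10 combinations. A gene with few UMIs reaches a high value here from counting alone, so the figure describes these libraries at this depth.

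Ccl3 and Ccl4, inflammatory chemokines that neutrophils, macrophages and T cells release on activation, were highest in neutrophils. Ccl3 was at 4166 CPM for NTT, 5092 for RTT, 2378 for RTT_ROSA26 and 3241 for RTT_PTGS12KO. Ccl4 was at 7715, 8009, 3695 and 6303 CPM in the same cells. RTT_ROSA26 was the low sample for both, its Ccl4 loads (3423 to 4193) lying below those of the other 3 (5049 to 10120). In the same cells the 7 neutrophil markers checked, all above 10 CPM, summed to 55717, 55426, 35954 and 44634 CPM and the 13 macrophage markers to 6729, 24603, 27250 and 11157 CPM. RTT_ROSA26 was thus also lowest for the former and highest for the latter, and their part in the chemokine levels was not tested. After thinning, 83.0% to 91.6% of neutrophils held a Ccl3 UMI and 81.5% to 94.3% a Ccl4 UMI (89.6% to 93.8% and 91.8% to 97.2% unthinned), against 6.30% and 8.60% (24.8% and 42.7%) of the myofibroblast-type cells, whose median depth (33686 UMIs) was above that of neutrophils (7381 to 11085.5). With 106 to 146 cells per sample, neutrophils held 12.2% to 20.1% of all Ccl3 UMIs. The 93 T_CD8 cells of NTT followed, with 609 CPM of Ccl3 and 3035 of Ccl4.

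In TAM_C1q, TAM_Spp1 and TAM_cycling, Ccl3 was lower in the knockout. Against RTT_ROSA26 it was not lower in Ctsk_Macro (log2 ratio 0.09, -0.13 to 0.31) or in Macro (0.48, 0.16 to 0.81). TAM_C1q had 512, 427 and 192 CPM in RTT, RTT_ROSA26 and RTT_PTGS12KO, TAM_Spp1 372, 383 and 213, and TAM_cycling 393, 413 and 196, with 184 in NTT. In each of the 3 types the loads of the knockout lay below those of RTT and RTT_ROSA26. Ccl4 did not share this in full: it was at 776, 897 and 666 CPM in TAM_C1q and at 452, 471 and 504 in TAM_Spp1. In these 3 types the summed macrophage markers, all 13 above 10 CPM, were also lowest in the knockout, at 57395, 47348 and 33959 CPM in TAM_C1q, at 31079, 28133 and 25571 in TAM_Spp1 and, from RTT on, at 36596, 34295 and 20233 in TAM_cycling, and their part in the chemokine levels was not tested. The 2 monocyte types gave different orders for Ccl4. In Monocyte_1 it was at 888 CPM for NTT, 355 for RTT, 432 for RTT_ROSA26 and 635 for RTT_PTGS12KO, and in Infl_Mono at 1344, 1390, 2080 and 1119 CPM.

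Ccl6 and Ccl9, ligands of CCR1 made by myeloid cells, were highest in Macro, a type for which the study itself lists both as markers. Ccl6 was there at 6425 CPM for RTT, 6941 for RTT_ROSA26 and 2828 for RTT_PTGS12KO, and Ccl9 at 1656, 1933 and 736 CPM. The knockout was the low sample for both, as it was for Ccl8 and for the macrophage markers in these cells. In TAM_cycling both were lower in NTT than in RTT (log2 ratios -1.35 for Ccl6 and -1.95 for Ccl9), and in TAM_C1q both were lower in RTT_ROSA26 than in RTT (-1.10 and -0.67). In Monocyte_1 Ccl6 was highest in the knockout (1146 CPM, against 670.2 in NTT, 434 in RTT and 609 in RTT_ROSA26), and in TAM_Spp1 it stepped from 627 in RTT to 875 and 1295. Ccl9 was lower in the knockout than in RTT_ROSA26 in 7 of 9 types and lower in NTT than in RTT in 6 of 6. In TAM_C1q it was at 744, 466 and 407 CPM, in TAM_cycling at 124, 476, 352 and 276, and in neutrophils at 95.4, 373, 467 and 227 CPM. The macrophage markers took the same order of samples in neutrophils (values above) and in TAM_cycling, where they summed to 14254 CPM in NTT. Their part in the Ccl9 levels was not tested.

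Ccl24, a ligand of CCR3 tied to alternatively activated macrophages, was near 0 in most types. In Macro it was at 19.5 CPM in RTT (20 UMIs), 367 in RTT_ROSA26 (406 UMIs, loads 131 to 559) and 20.4 in RTT_PTGS12KO (26 UMIs). RTT_ROSA26 stood alone there, with a UMI in 32.8% of thinned cells (24.7% to 41.8%), against 3.09% and 5.21% in the other 2 and 0.198% of NK cells (46.2%, 13.1%, 13.5% and 0.474% unthinned). In Infl_Mono NTT was highest, at 56.1 CPM (663 UMIs, loads 12.3 to 91.5), against 9.42, 3.48 and 5.79. In Monocyte_1 the loads of RTT ran from 2.21 to 110.0 CPM around 42.4, so few cells carried that value. No UMI was found in DC3 of NTT and RTT_PTGS12KO, where the interval of the share of cells reaches up to 4.15% and 4.68%. Nor was any found in neutrophils of the same samples, where it reaches up to 3.42% and 3.05%.

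Ccr2, the receptor, was spread more evenly. In Monocyte_1 it was at 326 CPM for NTT, 297 for RTT, 628 for RTT_ROSA26 and 449.7 for RTT_PTGS12KO, and in Infl_Mono at 396, 359.6, 711 and 656 CPM. RTT_ROSA26 was highest in both, from 54 and 86 cells, and its loads in Infl_Mono (636 to 869) overlapped those of the knockout (603 to 701). Ccr2 is on the study's marker list for TAM_Spp1. This type had 388, 616 and 515 CPM in RTT, RTT_ROSA26 and RTT_PTGS12KO, close to the monocytes. NK cells had 409 CPM in NTT and 375 in RTT_PTGS12KO, with a UMI in 67.9% and 60.5% of thinned cells (88.3% and 91.2% unthinned), against 2.01% of the myofibroblast-type cells (12.3%).

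Macro was near TAM_Spp1, with 422 CPM of Ccr2 for RTT, 577 for RTT_ROSA26 and 616 for RTT_PTGS12KO. TAM_C1q and TAM_cycling held less. TAM_C1q had 52.7 CPM for RTT, 100.2 for RTT_ROSA26 and 184 for RTT_PTGS12KO, with a UMI in 9.22%, 16.7% and 31.2% of thinned cells (20.2%, 33.4% and 52.4% unthinned). TAM_cycling had 253, 102, 113 and 278 CPM, so NTT and the knockout formed the high pair. Their loads (247 to 288) lay above those of RTT and RTT_ROSA26 (93.4 to 130.0). In these cells the 9 monocyte markers checked, of which 6 to 8 were above 10 CPM, summed to 3399, 1427, 1096 and 1680 CPM and were thus also higher in NTT and the knockout, while the macrophage markers were lower there (values above). Their part in the Ccr2 levels was not tested. Ccr2 was higher in RTT_ROSA26 than in RTT in 10 of 10 types, with log2 intervals that spanned 0 in Ctsk_Macro (-0.13 to 0.60) and Myofibrobl (-0.47 to 0.98). Ctsk_Macro (16.7 CPM for RTT, 19.6 for RTT_ROSA26) was at the low end.

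Summed over monocytes, 2 of the 10 members differed 2-fold between NTT and RTT, against 3.31% of 6438 genes, with a members' median of 0.21 beside 0.04 over all genes. Ccl2 was higher in NTT (log2 ratio 1.14, 1.06 to 1.23) and Ccl8 lower (-1.22, -1.30 to -1.13). The Ccl8 ratio was -0.49 in Monocyte_1 and -3.11 in Infl_Mono, and the sum fell under 2-fold in chip load 1 alone (-0.64) and without the 5% deepest cells (-0.94). Between the knockout and RTT_ROSA26, 0 of 10 did, against 3.91% of the genes, with a median of -0.13 beside 0.0033. In chip load 2 alone 6 did, but the share over all genes was not computed for that load, so this count cannot be weighed. Between RTT_ROSA26 and RTT, 5 of 10 did, against 3.82%, with a median of 0.82 beside 0.0046: Ccl2 (1.48), Ccl4 (1.14) and Ccr2 (1.10) were higher in RTT_ROSA26, and Ccl8 (-1.46) and Ccl24 (-2.08) lower. The last 2 rest on 102 and 8 UMIs in the 144 monocytes of RTT_ROSA26, and in chip load 2 alone Ccl24 was higher in RTT_ROSA26 (1.40), while in chip load 3 alone Ccl8 was at -0.57. Ccl2 was at 2.39 in Monocyte_1 and 0.26 in Infl_Mono. Ccl4 was at 0.28 in Monocyte_1 and 0.58 in Infl_Mono, so its sum lay above both types, and Infl_Mono made up 86 of the 144 monocytes of RTT_ROSA26 and 138 of the 522 of RTT. In chip loads 1 and 3 alone the Ccl4 sum was at 0.21 and 0.68, and that of Ccr2 was at 0.88 in load 1. The 13 macrophage markers summed to 6827 CPM in Monocyte_1 of NTT, 14144 for RTT, 12584 for RTT_ROSA26 and 9669 for RTT_PTGS12KO, all 13 above 10 CPM in each, and the 9 monocyte markers to 8003, 4118, 7562 and 6025. Their part in these ratios was not tested.

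Summed over macrophages, 3 of 9 members differed 2-fold between NTT and RTT, against 8.74% of 7061 genes, with a median of 0.43 beside -0.0029. Ccl12 was higher in NTT (1.21, 1.16 to 1.25), and Ccl6 (-1.41, -1.49 to -1.33) and Ccl9 (-1.89, -2.00 to -1.79) lower. With the Macro type included Ccl6 was at -0.67, and in chip load 1 alone Ccl12 was at 0.94, both under 2-fold. Of the 308 macrophages of NTT, 192 were TAM_H2Ab1 and 79 TAM_cycling, whereas TAM_C1q (3412) and TAM_Spp1 (2057) made up most of those of RTT, so different types were compared. Within TAM_cycling alone, the ratios were 0.31 for Ccl12, -1.35 for Ccl6 and -1.95 for Ccl9. Ccl8, at 0.43 in the sum, was lower in NTT in both types compared (-2.68 in TAM_H2Ab1 and -1.24 in TAM_cycling).

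Between the knockout and RTT_ROSA26, 1 of 9 members differed 2-fold in macrophages, against 3.67% of the genes, with a median of 0.33 beside -0.08. This was Ccl8 (1.69, 1.66 to 1.72), and with the Macro type included its ratio was 0.99. The sums hold different types here too, with 364 TAM_H2Ab1 cells in the knockout and 11 in RTT_ROSA26, and the Ccl8 ratio within each type compared was below that of the sum (1.50 in TAM_cycling, 1.14 in TAM_C1q, 0.71 in Ctsk_Macro and 0.51 in TAM_Spp1). Ccl3 was just inside the limit, 1.99-fold lower in the knockout. Between RTT_ROSA26 and RTT, 2 of 9 differed, against 1.52%, with a median of 0.24 beside 0.06: Ccl2 (1.20, 1.19 to 1.22) and Ccl7 (1.14, 1.12 to 1.16).

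Several pairs of ligands were found in the same cells. Only ligands that lie near each other in the genome were paired, so these values say nothing about genome position. Among cells thinned to 3000 UMIs, the share with a Ccl7 UMI was higher in cells with a Ccl2 UMI than in cells without in 23 of 23 combinations of type and sample, with separate intervals in 17. In TAM_C1q of the knockout it was 67.8% (64.9% to 70.6%) against 20.4%. Ccl12 was higher with Ccl2 in 21 of 23 combinations, Ccl4 with Ccl3 in 22 of 22 and Ccl9 with Ccl6 in 22 of 22. Ccl8 went less closely with Ccl7, in 16 of 18 combinations and with separate intervals in 7. The median Pearson correlation over cells was 0.49 for Ccl2 with Ccl7, 0.49 for Ccl3 with Ccl4, 0.41 for Ccl2 with Ccl12 and 0.30 for Ccl6 with Ccl9, over cells that share libraries. The combinations include NK cells, where Ccl2 is read as background. In NK cells of the knockout, Ccl7 was in 30% of cells with Ccl2 against 2.68%, and Ccl12 in 50% against 3.83%. In those of NTT the shares were 7.14% against 5.32%, and 17.9% against 5.16%. The part of doublets (cells captured together) and of free RNA in these pairs was not tested.

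The ligand and its receptor were not found together in this way. Ccr2 was higher in cells with Ccl2 in 16 of 23 combinations, with separate intervals in 3, and it was lower with separate intervals in 4. These were TAM_C1q of RTT (7.48% of cells with Ccl2 against 10.5% of cells without) and TAM_cycling of RTT (13.3% against 24.5%), RTT_ROSA26 (15.4% against 26.5%) and RTT_PTGS12KO (43.6% against 52.3%).

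**Figure D5:**
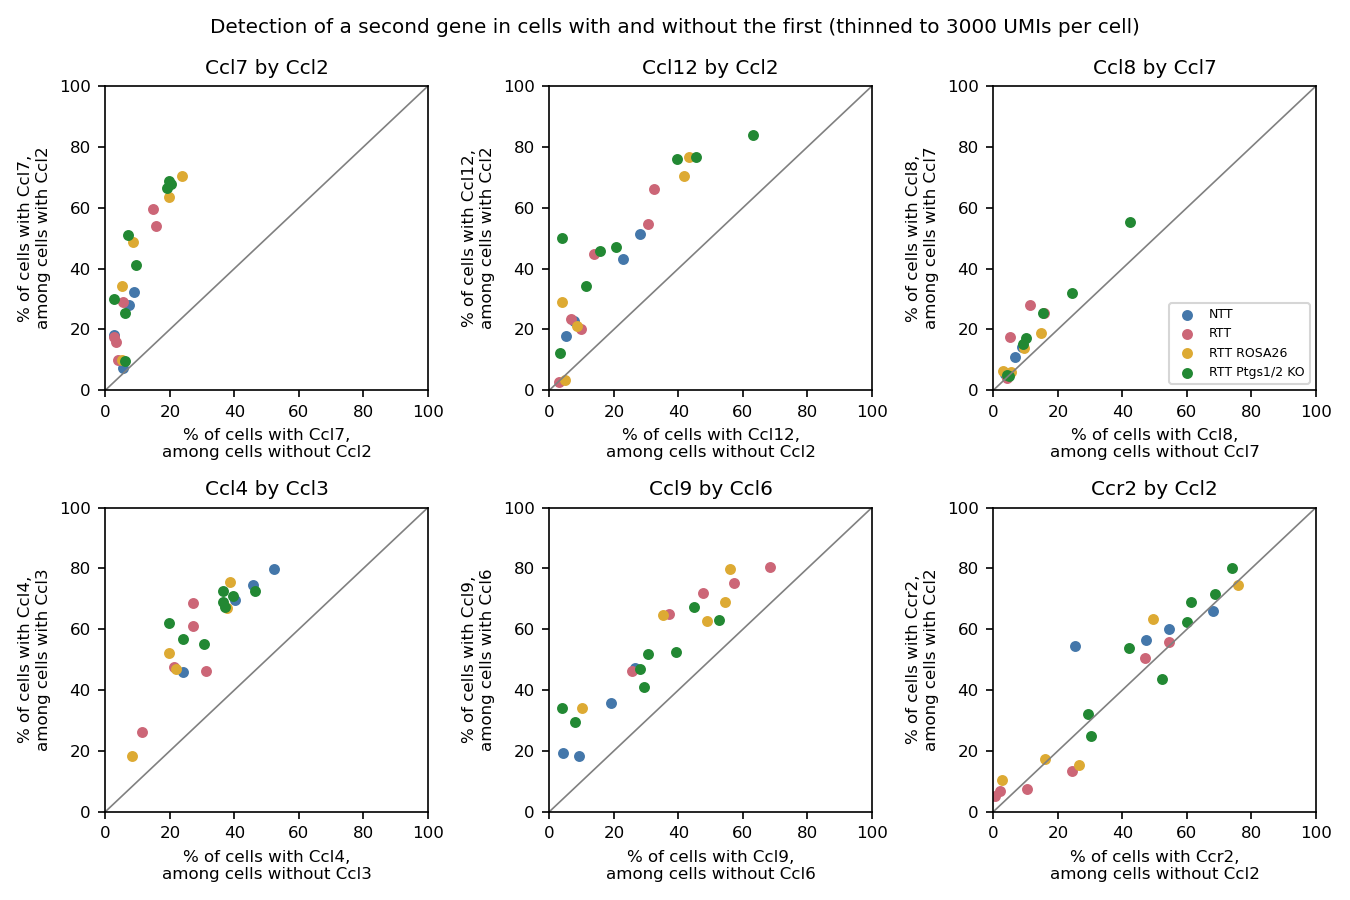
Share of cells (%) with a UMI of a second member among cells with (vertical) and without (horizontal) a UMI of the first, after thinning to 3000 UMIs per cell; each point is 1 cell type in 1 sample and the line marks equal shares. Points for Ccl7 by Ccl2, Ccl4 by Ccl3 and Ccl9 by Ccl6 lie above the line, and those for Ccr2 by Ccl2 lie on both sides of it.

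Across the 42 combinations of type and sample, log2(CPM + 1) of Ccl2 and Ccl7 went together (Pearson's r 0.95, Spearman's rho 0.94), as did Ccl3 and Ccl4 (0.92 and 0.90), Ccl2 and Ccl12 (0.87 and 0.82) and Ccl6 and Ccl9 (0.80 and 0.76). Ccl2 and Ccr2 did so less (0.29 and 0.32). These points share samples, loads and cell types, so the values describe the pattern only. Of 7096 genes compared, with the 10 members left out of the ranking, the closest to Ccl2 and Ccl7 was Adgre1, which encodes the macrophage antigen F4/80 (r 0.82 and 0.86). The closest to Ccl12 was Ch25h, cholesterol 25-hydroxylase (0.94), to Ccl3 the interleukin gene Il1a (0.90), to Ccl4 Slfn4 (0.84), to Ccl6 Anks1 (0.89), to Ccl9 Snx2 (0.90), to Ccl8 Rnf145 (0.83), to Ccr2 the leukotriene B4 receptor Ltb4r1 (0.85), and to Ccl24 Lars2 (0.70). Over the 32 combinations with at least 100 cells, Adgre1 (for Ccl7), Ch25h, Il1a, Anks1 and Snx2 were again first, Adgre1 remained among the 3 closest to Ccl2, and Slfn4, Rnf145, Ltb4r1 and Lars2 were no longer among the 3 closest.

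Of 12 other CC chemokines on a fixed list, only Ccl5, which T cells and activated myeloid cells make, averaged 10 CPM or more. It was at 2272 CPM for NTT, 76.3 for RTT, 54.5 for RTT_ROSA26 and 349 for RTT_PTGS12KO, past 2-fold in NTT against RTT (log2 ratio 4.90) and in the knockout against RTT_ROSA26 (2.68). Of 12 other CC and atypical receptors, 3 averaged 10 CPM or more. Ccr1, through which Ccl6 and Ccl9 act, was at 366 to 463 CPM in the 4 samples and below 2-fold in every comparison. Against RTT, NTT had higher levels of Ccr7 (2.91) and Ccrl2 (1.21), and the knockout exceeded RTT_ROSA26 in Ccr7 (1.90). Ccr3, the receptor of Ccl24, averaged 2.24 CPM.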

How the data were processed

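The 4 samples were labelled with multiplexing oligonucleotides, pooled and loaded 3 times on a 10x Genomics chip, so every sample shares its droplets and loads with the others. Per the labels, reads were processed with Cell Ranger on mm10 and cells with Seurat 4.3.0. The authors deposited raw UMI counts per gene and cell, and a table with the sample and cell type of each cell. Cells had passed their limits of more than 1000 detected genes, less than 15% of reads from mitochondrial and less than 40% from ribosomal genes, and were integrated with other experiments to name types. The labels give 1 tumour per condition, whereas the study's figure legends give several tumours pooled per group; the sources do not settle which holds for these samples.

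The 10 members and all lists were chosen with earlier results of these data known. All deposited cells were used, and sample and type came from the deposited table. No doublet caller was run. Multiplexing had been resolved before deposit, which leaves doublets of cells from the same sample in place. Removal of the 5% deepest cells of each type and sample was an alternative. UMIs were summed per sample, type or class and divided by the total (CPM). Macro, which led with tissue-resident markers, was kept out of the macrophage class. Ratios had no pseudocount, and a gene was compared if its mean over the 4 samples reached 10 CPM, with 2-fold as the limit. Types were compared where 50 cells or more were present. Shares of cells were taken after thinning each cell to 3000 UMIs. With 1 sample per group there was no test. The genes named beside the members were the 3 most alike by Pearson's r across types and samples, of which the first is printed. A member of the list of other CC receptors is not reported here. Other scalings, filters, weights and single chip loads were tried as alternatives. Ratio intervals and thinning were checked on simulated data. Python 3.11.15, numpy 2.4.6, scipy 1.17.1, pandas 2.3.3, matplotlib 3.10.9 and, for TMM factors, edgeR 4.0.16 in R 4.3.3 were used.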

Additional observations from a re-analysis of the deposited data

Results flagged for a closer look

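For NTT against RTT, Ccl8, Ccl12 and Ccl6 lay on opposite sides of 0 in monocytes and macrophages. The log2 ratio of Ccl8 was -1.22 in monocytes and 0.43 in macrophages, that of Ccl12 was -0.33 and 1.21, and that of Ccl6 was 0.35 and -1.41. The macrophage sums set different mixes of types against each other. Within types, Ccl8 was lower in NTT in the 4 monocyte and macrophage types compared (-0.49 in Monocyte_1, -3.11 in Infl_Mono, -2.68 in TAM_H2Ab1 and -1.24 in TAM_cycling). Ccl12 was at 0.96, -1.16, 0.36 and 0.31 in the same types, and Ccl6 at 0.63, -0.29, -1.46 and -1.35. With 1 sample per group the difference between the classes was not tested.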

How the results depend on the processing

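Each group is 1 sample, so no alternative speaks to the spread between animals, and small groups (144 monocytes in RTT_ROSA26, 308 macrophages in NTT) limit the depth. No paired analysis was possible because with 1 sample in a group no pairs exist. Of 20 ratios past 2-fold, 6 stayed past it under every alternative run and 19 kept their sign. Ccl24 in monocytes, RTT_ROSA26 against RTT, changed from -2.08 to 1.40 in chip load 2 alone; the cause was not tested.

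Of 105 counts of members past 2-fold under an alternative, 62 equalled the main count, 21 differed by 1.5 times or less (12 higher by 1, 1 higher by 2 and 8 lower by 1) and 22 by more. The share over all genes was not computed under the alternatives, so these counts stand without it. The 22 were as follows. With cell types weighted equally, NTT against RTT gave 2 in place of 4, the knockout against RTT_ROSA26 2 in place of 0, and RTT_ROSA26 against RTT 1 in place of 3. Over all cells the knockout comparison gave 1 with TMM factors, 1 with the mean of per-cell CPM and 1 in chip load 2 alone. In monocytes it gave, in place of 0, 1 with TMM factors, 2 with stricter cells, 1 with the mean of per-cell CPM, 1, 6 and 2 in chip loads 1, 2 and 3, and 1 with Monocyte_1 alone. In monocytes, NTT against RTT gave 1 in place of 2 without the 5% deepest cells, and RTT_ROSA26 against RTT gave 3 in place of 5 in chip load 1. In macrophages, NTT against RTT gave 5 in place of 3 with the mean of per-cell CPM, and the knockout comparison gave, in place of 1, 2 without the deepest cells, 2 in chip loads 1 and 3, and 0 with Macro included. Of the alternatives chosen after seeing the data, monocytes without Monocyte_3 gave 1 in place of 0 and macrophages without Ctsk_Macro and TAM_cycling 2 in place of 1, both for the knockout comparison (without these types, NTT against RTT in macrophages gave 4 in place of 3). With at least 100 cells per type, 13 of the 30 most alike genes were kept. Shares of cells above the background type numbered 346 of 400 at 3000 UMIs, 342 at 5000 and 334 unthinned.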
